A study of Schizosaccharomyces pombe with 4 samples.

Results

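A set of 197 fission yeast genes had a high RNA level and a below-median signal of Ser5-phosphorylated RNA polymerase II (Pol II). They were chosen from 4888 genes by the rule that the RNA level lay above its 75th percentile and the Pol II ratio below its median, and they are called the members here. They made up 4.03% of all genes and 16.1% of the 1222 genes above the RNA threshold. Upf1, whose association with these genes is described below, took no part in the choice. Of the members, 193 are protein-coding, 3 are annotated non-coding RNA genes and 1, SPNCRNA.341, had no match in the annotation.

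Upf1 is a conserved RNA helicase best known for nonsense-mediated decay, the cytoplasmic pathway that removes mRNAs with premature stop codons. It is mostly cytoplasmic, but it has also been found with chromatin at transcribed genes. The RNA level of a gene reflects how often it is transcribed and how long its RNA lasts, so a gene with stable RNA can hold few polymerases. Genes of this kind separate the RNA level of a gene from the amount of polymerase found on it, which for most highly expressed genes go together.

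Upf1 association was mapped by chromatin immunoprecipitation with read-out on tiling arrays (ChIP-chip) in Schizosaccharomyces pombe cells carrying Upf1 with an HA tag. Cells were grown in the rich medium YES. An asynchronous culture with no treatment and a culture synchronised in S phase gave 1 immunoprecipitation (IP) array each, and 2 untreated input arrays served both. The labels of the 2 IP arrays end in digits that read as different dates, so date and culture cannot be told apart. The S-phase culture carried the temperature-sensitive allele cdc25-22, was arrested in G2 for 3.5 h at 37 °C and was fixed 60 min after release at 25 °C. The study's strain list pairs the HA tag with cdc25-22, but the labels do not say which strain gave the asynchronous culture. The synchrony was judged under the microscope, and the S-phase culture had no input of its own.

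The Upf1 values are IP over input ratios, given as log2 and centred on the median of all 4888 genes, so that 0 is the median gene. The same was done for Pol II phosphorylated on Ser5, the form that in S. pombe is found along the coding region of active genes. Pol II and RNA are the authors' values from published experiments on other cultures, and neither carries an error here. The median ratio before centring was 0.774 in the asynchronous culture and 0.195 in the S-phase culture. With 1 IP array for each culture there was no replicate error, no test was possible, and all differences are descriptions. As a yardstick, the SD over genes of the difference between the cultures, over √2, gave a spread of single genes between arrays of 0.24 log2 units, which also holds any true difference between them.

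Stretches of DNA from 2 members are shown here because the results below return to them. The first belongs to gpd3, which encodes a glyceraldehyde 3-phosphate dehydrogenase and is 1 of the 2 members that exceeded the median gene by 1.5-fold in both cultures. It holds the longest run of bases, 203, that gpd3 shares with its paralogue tdh1, in capitals, with 10 bases of gpd3 on each side (chrII:579297-579519, forward strand). The other is the DNA upstream of cdc22, the large subunit of ribonucleotide reductase, with the MluI cell cycle box (MCB) ACGCGT in capitals (chrI:4226878-4226963, forward strand). Both are read 5′ to 3′ along the gene from RefSeq, assembly ASM294v3.
gpd3: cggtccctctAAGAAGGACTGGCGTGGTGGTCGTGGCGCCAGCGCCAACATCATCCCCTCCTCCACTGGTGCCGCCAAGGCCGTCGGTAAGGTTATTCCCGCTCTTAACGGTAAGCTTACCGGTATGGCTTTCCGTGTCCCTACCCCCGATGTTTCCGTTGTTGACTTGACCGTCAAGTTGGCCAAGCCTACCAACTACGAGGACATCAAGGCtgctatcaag
cdc22: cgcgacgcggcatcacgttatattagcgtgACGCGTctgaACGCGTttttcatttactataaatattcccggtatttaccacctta

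The members sat close to both thresholds. The RNA threshold was 86.9 FPKM, and the members had a median of 119 FPKM with quartiles of 97.7 and 161. Their Pol II ratios had a median of -0.25 on the centred log2 scale, against 0.63 for the 1025 other genes above the RNA threshold. These values chose the members and are given as a description. Just inside the RNA threshold lay SPAPB2C8.01, SPAC750.01 and rpc17 at 86.86 to 87.1 FPKM, and just outside it among genes of low Pol II lay sno1, rpn1302 and rio1 at 86.7 to 86.85 FPKM. Just inside the Pol II threshold, a ratio of 0.547, lay fmo1, sod2 and pab2 at 0.546 each. The nearest genes above it were rpa43 at 0.547 and SPAC26H5.09c and nhp2 at 0.549 each. Genes on either side of these limits were thus nearly alike, and rpa43, with Upf1 at -0.58 and -0.69, missed the set by a margin smaller than the rounding of these ratios.

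**Figure D1:**
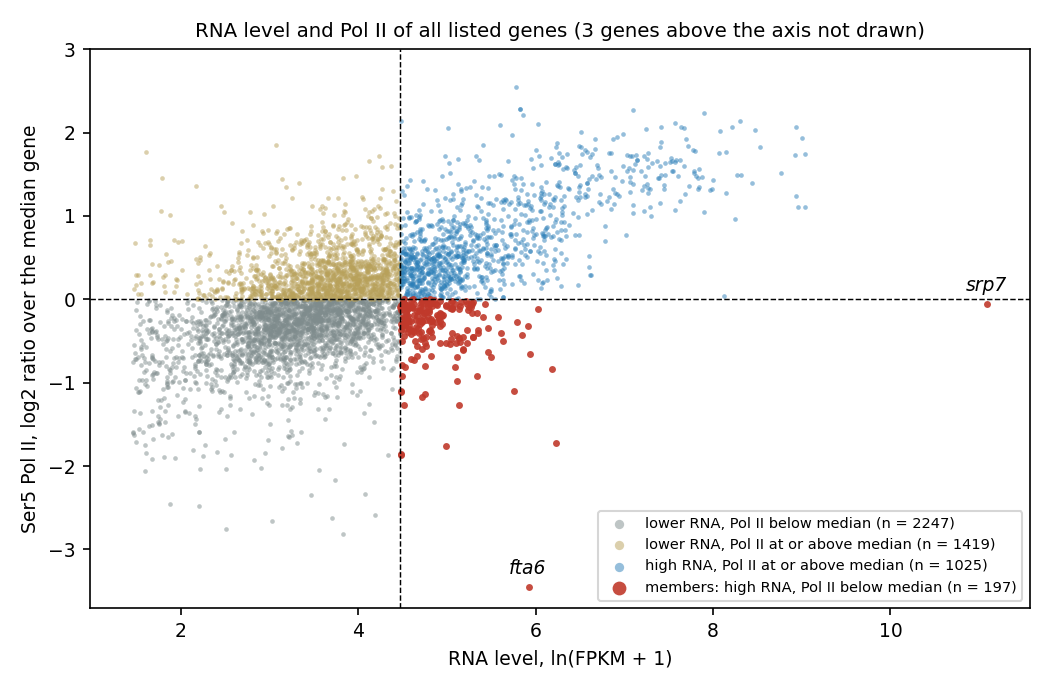
RNA level (x axis, natural log of FPKM + 1) and Ser5 Pol II (y axis, log2 ratio over the median gene) of the 4888 genes, 1 point each, with dashed lines at the thresholds. The 197 members (red) crowd against both lines, apart from srp7 at 65505 FPKM and fta6 at a Pol II value of -3.45.

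Beyond what the rule used, the members were short genes and many were split by introns. The median gene length was 1130 bases in the members and 1803.5 in all genes, and 80 of 196 annotated members (40.8%) were shorter than 1000 bases, against 15.3% of all genes. Short genes were also common among the other genes above the RNA threshold, at 23.6%. An intron was annotated in 139 of 196 members (70.9%), against 46.7% of the other high-RNA genes, 52.1% of the lower-RNA genes with Pol II below the median and 48.5% of all genes. GC content had a median of 35.9% in the members, 38.7% in the other high-RNA genes and 36.1% in the lower-RNA, low Pol II genes. The members therefore resembled genes of low Pol II in base composition. A near-identical copy, defined as 10% or more of the gene's 25-base words (the length of an array probe) found elsewhere in the genome, was present for 3 members, namely SPAPB2C8.01, SPAC750.01 and gpd3. Another protein-coding gene overlapped 33.7% of the members and 43.6% of all genes.

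The median Upf1 of the members was slightly below the median gene, by an amount that depended on the correction for GC content. In the asynchronous culture the members had a median of -0.07, with quartiles of -0.24 and 0.09, and in the S-phase culture a median of -0.11, with quartiles of -0.34 and 0.12. The remaining 4691 genes had medians of 0.00 and 0.01, so the members lay lower by 0.08 and 0.12. With the trend of Upf1 on GC content removed, the members' medians were -0.0044 and -0.036, so most of this shift was no longer seen. Upf1 lay above the median gene for 76 members in the asynchronous culture and for 74 in the S-phase culture, where by definition 50% of all genes do. It was below the median gene in both cultures for 90 members (45.7%, background 38.3%) and above it in both for 43 (21.8%, background 38.3%).

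The distance to other highly expressed genes was larger. High-RNA genes with Pol II at or above the median had Upf1 medians of 0.25 in the asynchronous and 0.38 in the S-phase culture, and the members lay below them by 0.32 and 0.49. Within 5 bins of RNA level, weighted by the members in each, the distance was -0.23 and -0.36. These genes also had a higher GC content, and with the trend of Upf1 on GC removed the distance was -0.11 and -0.24. Lower-RNA genes with Pol II below the median stood nearer, with Upf1 medians of -0.14 and -0.19, from which the members differed by 0.07 and 0.08. The median RNA level of those genes was 24.3 FPKM, against 119 in the members. With the trend of Upf1 on GC removed, the members differed from them by 0.084 and 0.085. From the remaining genes they then differed by -0.0045 and -0.037. The members' medians thus lay between those of genes with low Pol II but less RNA and those of the remaining genes. Once the GC trend was removed, they lay nearer the remaining genes.

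**Figure D2:**
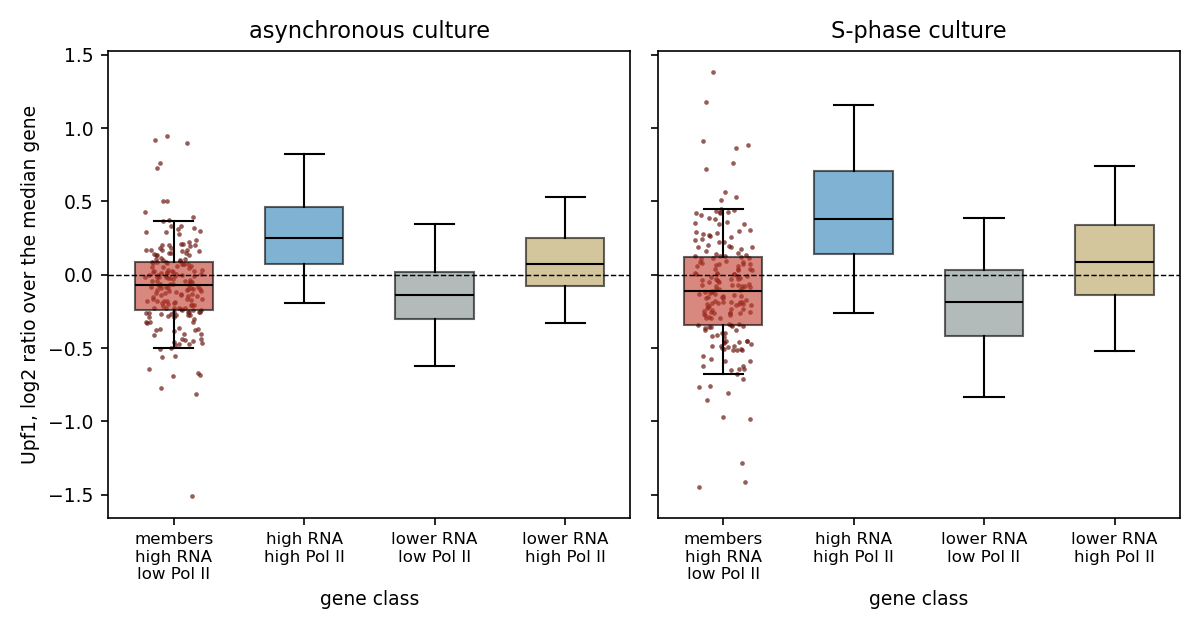
Upf1 (y axis, log2 ratio over the median gene) in each culture for 4 classes of genes, with boxes at the quartiles, lines at the medians, whiskers at the 5th and 95th percentiles and every member as a point. The members (medians -0.07 and -0.11) sit a little above the lower-RNA, low Pol II genes (-0.14 and -0.19) and below the high-RNA, high Pol II genes (0.25 and 0.38).

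Few members passed 1.5-fold. In the asynchronous culture, Upf1 exceeded the median gene by 1.5-fold or more on 5 members (2.54%), against 5.14% of all genes and 15.4% of the other high-RNA genes. In the S-phase culture it was so on 7 members (3.55%), against 11.2% of all genes and 34.7% of the other high-RNA genes. Of the lower-RNA, low Pol II genes 1.34% and 1.78% passed. On the other side, 7 members (3.55%, background 3.36%) were at least 1.5-fold below the median gene in the asynchronous culture and 18 (9.14%, background 7.96%) in the S-phase culture, shares near the background. Both 1.5-fold limits were kept in both cultures by 165 members (83.8%, background 78%).

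Ordering the genes by Pol II set the members beside genes with less RNA at similar Pol II. In group 1 of 10 equal groups, the genes with the lowest Pol II, the 26 members had a median Upf1 of -0.10 in the asynchronous and -0.11 in the S-phase culture, against -0.22 and -0.32 for the 463 other genes. In group 5, which ends at the median of Pol II, the 66 members had -0.07 and -0.08 and the 422 other genes -0.04 and -0.06. In groups 2, 3 and 4 the members had -0.03, -0.09 and -0.06 in the asynchronous and -0.25, -0.12 and -0.04 in the S-phase culture. Medians of the other genes rose from group to group in both cultures, whereas those of the members did not rise steadily. The members thus lay above other genes of the lowest Pol II and about level with them near the median of Pol II. In group 10, with most Pol II, the genes above the RNA threshold reached 0.47 and 0.72. Within the members Upf1 hardly followed Pol II, with Spearman's correlation coefficients across 197 genes of 0.07 in the asynchronous and 0.14 in the S-phase culture, whereas across all 4888 genes they were 0.56 and 0.58. The rule narrows the range of Pol II among the members, so these coefficients are not on an equal footing. The coefficients with RNA level were 0.04 and -0.06 within the members. Those with GC content were 0.36 and 0.31 across 196 members, and the coefficient between the cultures, which share the input arrays, was 0.51 (0.69 across all genes).

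**Figure D3:**
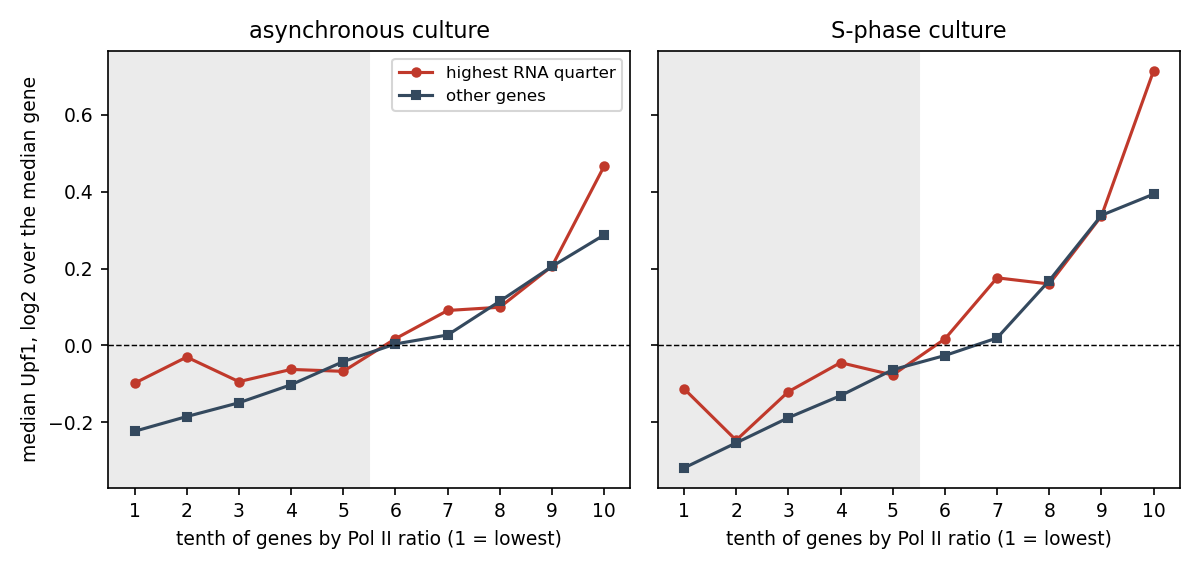
Median Upf1 (y axis, log2 over the median gene) in the 10 equal groups of genes by Pol II ratio (x axis, 1 is lowest), for genes above (red) and below (dark blue) the RNA threshold, in each culture. Red points in the shaded groups 1 to 5 are the members, which start at -0.10 and -0.11 where the other genes start at -0.22 and -0.32. In group 5 they are about level.

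Gene functions were described with lists of genes taken from annotated product names or, for glycolysis, from gene symbols. The members were drawn unevenly from the highly expressed genes. None of the 132 high-RNA genes for cytosolic ribosomal proteins was a member, nor any of the 22 for membrane transporters, the 19 for tRNA ligases, the 11 for histones and the 7 for protein kinases. Just 1 of 32 proteasome genes and 1 of 14 genes of glycolysis and fermentation was. Members were instead 8 of 18 high-RNA genes for redox enzymes (44.4%), 6 of 13 for splicing factors (46.2%), 7 of 20 for RNA polymerase subunits (35%), 10 of 33 for the respiratory chain and ATP synthase (30.3%) and 14 of 59 for ribosome biogenesis (23.7%), where 16.1% of all high-RNA genes were. Between these lay 5 of 41 chaperone genes (12.2%), 5 of 44 translation factor genes (11.4%), 2 of 25 for vesicle transport (8%), 3 of 16 for the ubiquitin system (18.8%), 1 of 5 for mitochondrial ribosomal proteins and 3 of 13 non-coding RNA genes (23.1%). In all, 80 members fell in at least 1 list and 117 in none.

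The members of the respiratory chain and ATP synthase list were mostly small subunits of the inner membrane complexes, and as a group they stood close to the median gene in Upf1. Their medians were 0.04 in the asynchronous and 0.06 in the S-phase culture, against 0.31 and 0.38 for the high-RNA genes of the list with more Pol II. The highest was cox13, subunit VIa of cytochrome c oxidase, at 0.33 and 0.19. The lowest was emi5, annotated as a succinate dehydrogenase subunit, at -0.37 and -0.45. Upf1 was above the median gene on 6 of the 10 in the asynchronous and on 7 of the 10 in the S-phase culture.

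Members that encode splicing factors and RNA polymerase subunits had lower medians. The 6 splicing members had Upf1 medians of -0.33 and -0.29, and 5 of them were below the median gene in both cultures, where 38.3% of all genes and 45.7% of the members were. They ran from lsm8, part of the ring of Lsm proteins that binds U6 RNA, at 0.09 and 0.07, to dim1, a protein of the tri-snRNP, at -0.46 and -0.97. All listed splicing genes had medians of -0.11 and -0.13. The high-RNA genes of that list with more Pol II had 0.18 and -0.10. The 7 RNA polymerase members included rpb6 (0.02 and 0.14), rpb5 (-0.20 and -0.04) and rpc10 (-0.23 and -0.49), which belong to all 3 nuclear polymerases, and rpc19 (-0.56 and -0.20), shared by Pol I and Pol III. Their medians were -0.20 and -0.20, and 6 of the 7 were below the median gene in both cultures, as were 38.3% of all genes and 45.7% of the members. The high-RNA polymerase subunit genes with more Pol II had 0.15 and 0.17.

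Ribosome biogenesis was the longest of the lists, with 14 members. Its medians were -0.12 and -0.22, with 8 of 14 below the median gene in both cultures (38.3% of all genes and 45.7% of the members), against 0.06 and 0.20 for the high-RNA genes of the list with more Pol II. They ranged from nop16, a protein of the pre-60S particle, at 0.11 and 0.44 to alb1 at -0.64 and -0.77. The 8 redox members had medians of -0.26 and -0.28. Among them were the glutaredoxins grx1 (0.21 and -0.35), grx3 (-0.37 and -0.36) and grx5 (-0.51 and -0.21), thiol enzymes of which grx3 and grx5 take part in iron-sulphur cluster assembly. The highest was sod2, the manganese superoxide dismutase, at 0.07 and 0.00. No redox member was above the median gene by more than the spread between arrays in either culture.

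The shorter lists were mixed. Of the 5 chaperone members, hsp9 was highest at 0.92 and -0.28 and hot15, annotated as a TIM chaperone, lowest at -0.30 and -0.71. Prefoldin, which passes nascent actin and tubulin to the chaperonin, contributed pfd2 at 0.21 and 0.22 and pfd4 at 0.10 and -0.42. The 5 translation factors had medians of 0.03 in the asynchronous and -0.45 in the S-phase culture, from mef1, the mitochondrial elongation factor G, at 0.18 and 0.27 to tif310, the eIF3j subunit, at -0.44 and -0.48. The only mitochondrial ribosomal protein was mrpl8 at -0.11 and -0.05, and the only proteasome subunit was rpn10, a ubiquitin receptor, at -0.40 and -0.52.

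Several complexes recurred among the members, and these lists were made after the members had been seen. All 3 high-RNA genes of the NatA acetyltransferase, which modifies the N-termini of nascent proteins, were members, with Upf1 at 0.01 and 0.26 for naa10, at -0.15 and -0.18 for naa15 and at 0.04 and 0.03 for naa50. All 3 high-RNA genes of the Ino80 chromatin remodeller were members, with ies2 at 0.33 and 0.45, ies6 at 0.18 and 0.13 and nht1 at -0.27 and -0.68. The signal recognition particle and its receptor gave 4 of 7, the small TIM proteins 3 of 4 and the V-type ATPase 3 of 12.

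**Figure D4:**
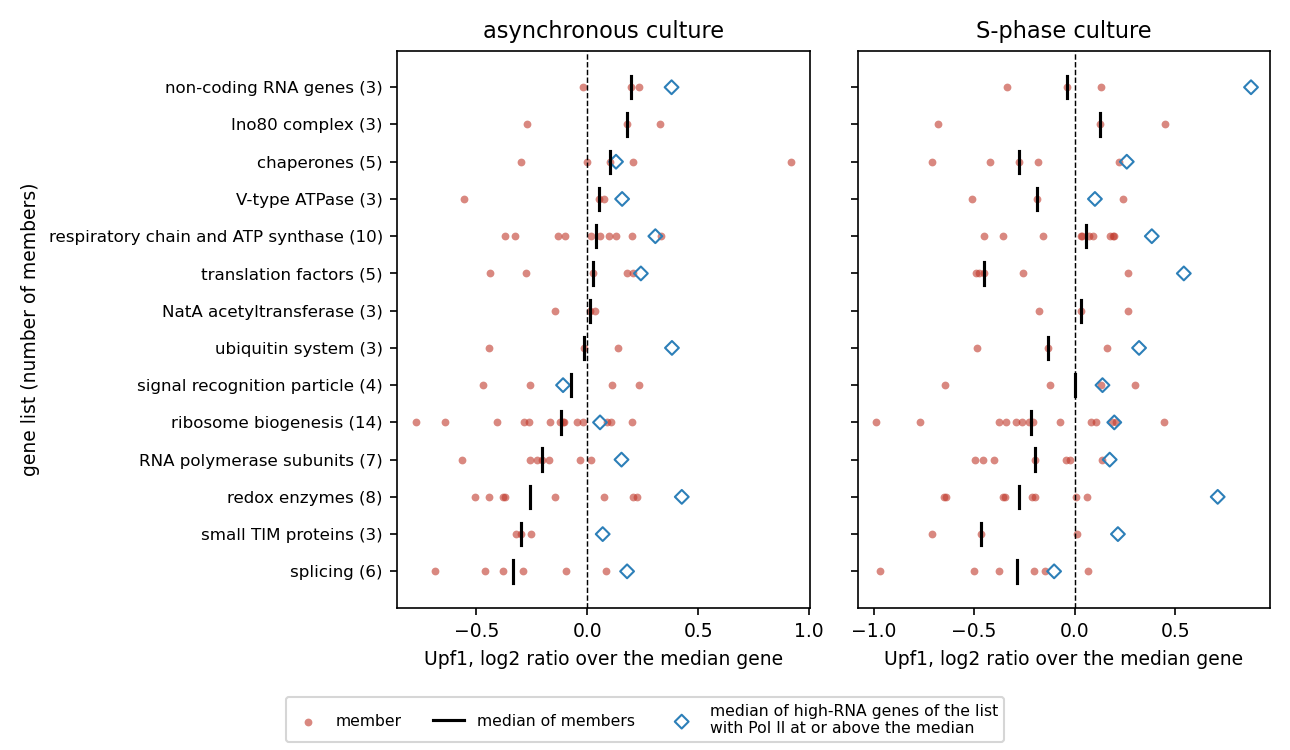
Upf1 (x axis, log2 ratio over the median gene) of the members of each list with 3 or more members, in each culture. Points are single genes, bars the median of the members, and open diamonds the median of the list's high-RNA genes with Pol II at or above the median. The diamonds lie to the right of the bars in both cultures for every list that has them, except the signal recognition particle in the asynchronous culture.

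The members with most Upf1 were ranked by the mean of both cultures, and the values follow in the order asynchronous, S phase. SPCC306.11, a gene of unknown function, was first at 0.73 and 1.18. It ranked 137th and 62nd of the 4888 genes. The second was gpd3 at 0.90 and 0.86. No other member passed the upper 1.5-fold limit in both cultures (2 of 197, 1.02%, background 3.36%). With the trend on GC removed, gpd3, at 45.3% GC, stood at 0.36 and 0.17 and passed it in neither, while SPCC306.11 passed it in both. Neither gene next to SPCC306.11 was high, with wtf8 at -0.04 and -0.33 and alp16, whose annotated end overlaps it, at -0.22 and -0.07.

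The gpd3 gene had a Pol II value of -0.63 and an RNA level of 236 FPKM, while its paralogue tdh1, the main glyceraldehyde 3-phosphate dehydrogenase gene, had Upf1 at 1.41 and 1.85 and Pol II at 1.48. The run of 203 bases printed above is found in both genes without a difference. Of the 1916 words of 25 bases in gpd3, 376 (19.6%) occur in tdh1, so probes of this length placed there cannot tell the genes apart. How much tdh1 contributed to the value of gpd3 was not tested, since the table holds a single signal for all probes of a gene.

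The other members among the first 10 had various functions. The third was adg1 at 0.36 and 1.38. SPBC1773.04, a methylglyoxal reductase, had 0.76 and 0.39, and mpc1, a subunit of the mitochondrial pyruvate carrier, 0.16 and 0.89. Next came fic1, a protein of the contractile ring, at 0.50 and 0.43, cdc22 at 0.02 and 0.91, and rhb1, the Rheb GTPase that activates TOR, at 0.95 and -0.10. The septation protein uds1 had 0.07 and 0.76, and ies2 closed the first 10. SPCC306.11, gpd3, SPBC1773.04, fic1 and ies2 had values of 0.33 or more in both cultures, whereas adg1, mpc1, cdc22 and uds1 owed their place mainly to S phase and rhb1 to the asynchronous culture. With the trend of Upf1 on GC removed, SPCC306.11 (0.72 and 1.21) and fic1 (0.50 and 0.44) stayed above that value in both, while gpd3 (0.36 and 0.17), SPBC1773.04 (0.46 and -0.09) and ies2 (0.19 and 0.28) did not. Genes next to these members varied in Upf1. Those beside fic1 were high, with mbf1, 269 bases away, at 0.58 and 0.38 and atf1 at 0.43 and 0.49. Next to cdc22 lay rho1 at 0.51 and 0.60 and fip1 at -0.05 and 0.84. Next to rhb1, wpl1 was low at -0.31 and -0.25, and SPBC428.15 had 0.30 and -0.20. Whether signal from neighbours entered these values was not tested.

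The members with least Upf1 were small genes poor in GC. Last was fta6, a protein of the inner kinetochore, at -0.82 and -1.41. SPAC144.01, of unknown function, had -1.51 and -0.51, SPAC16E8.18, also of unknown function, -0.32 and -1.45, and SPAC1B3.02c, an elongation factor of the Elf1 family, -0.45 and -1.28. They were followed by dim1, by alb1, by SPBC365.04c, an RNA-binding ribosome biogenesis protein (-0.40 and -0.99), by isd11, which serves iron-sulphur cluster assembly (-0.68 and -0.59), by smd2, an Sm protein of the spliceosome (-0.69 and -0.50), and by sdo1, the SBDS ribosome maturation protein (-0.36 and -0.80). All 10 were below the median gene in both cultures, and fta6, alb1 and isd11 were at least 1.5-fold below in both (1.52%, background 2.15%).

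The extremes differed in more than Upf1. The 10 lowest had lengths of 260 to 1374 bases (median 754) and GC contents of 30.4% to 35.2%, while the 10 highest had lengths of 828 to 3197 bases (median 1404) and GC contents of 32.9% to 45.3%. An intron was annotated in 8 of the lowest and 5 of the highest. With the trend of Upf1 on GC removed, fta6 stood at -0.39 and -0.91 and SPAC144.01 at -1.22 and -0.18. With the trend on gene length removed, they stood at -0.70 and -1.20 and at -1.62 and -0.66. Both remained below the median gene in both cultures under either setting. With the GC trend removed, alb1 (-0.50 and -0.57), isd11 (-0.39 and -0.26) and fta6 in the asynchronous culture were no longer 1.5-fold below it.

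**Figure D5:**
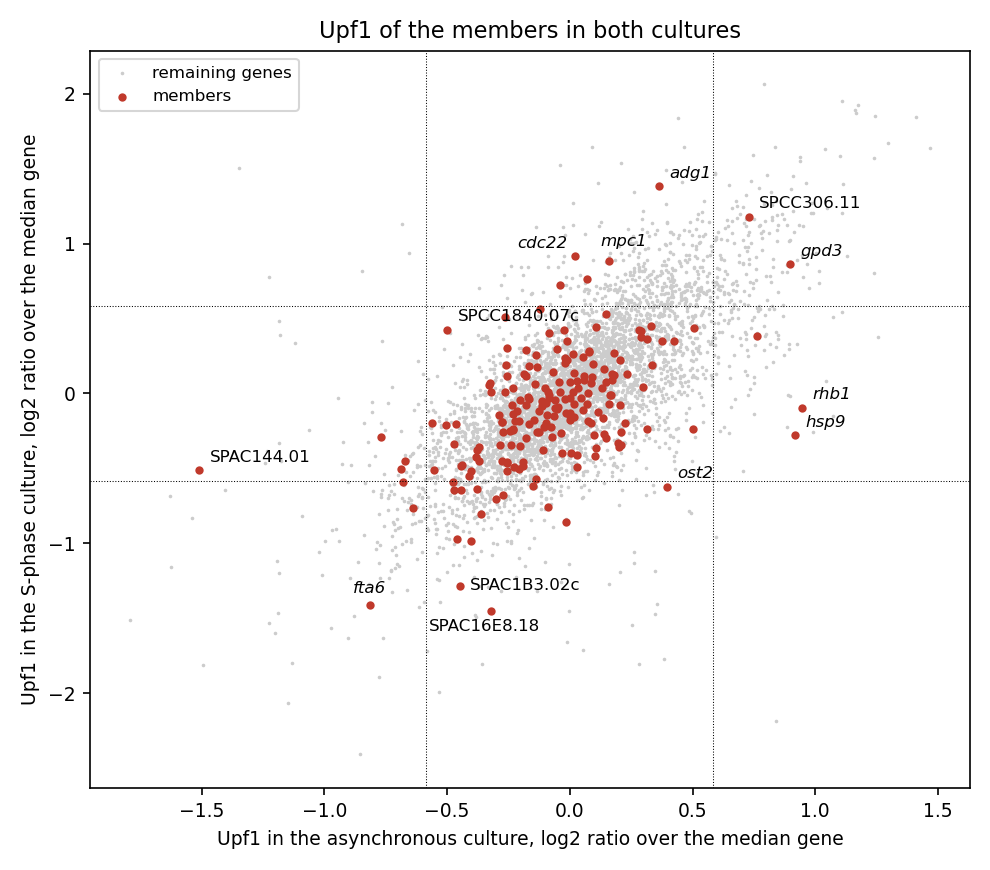
Upf1 in the asynchronous (x axis) and S-phase culture (y axis), log2 ratio over the median gene, for the 197 members (red) and the remaining genes (grey). Dotted lines mark 1.5-fold from the median gene. SPCC306.11 and gpd3 are the members in the upper right field, and rhb1 and hsp9 lie at 0.95 and 0.92 in the asynchronous culture but below 0 in the S-phase culture.

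The members with most RNA were not those with most Upf1. The highest RNA level by far was that of srp7, the 7SL RNA of the signal recognition particle, at 65505 FPKM. This RNA is a transcript of RNA polymerase III in eukaryotes, and its gene had Pol II at -0.05 and Upf1 at 0.23 and 0.13. The next 7 lay between 345 and 505 FPKM. They were SPNCRNA.341 with Upf1 at -0.21 and -0.51, the translocon subunit sss1 at 0.01 and -0.40, the respiratory assembly factor coa4 at -0.14 and -0.57, grx1, fta6, the ATP synthase subunit atp20 at 0.06 and 0.09, and cox13. Of these 8, srp7, atp20 and cox13 were above the median gene in both cultures, as were 38.3% of all genes and 21.8% of the members. None of the 8 was 1.5-fold above it in either culture, and fta6 was at least 1.5-fold below it in both.

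The members with least Pol II were likewise spread. The lowest was fta6, with Pol II at -3.45 and Upf1 at -0.82 and -1.41. SPAC750.01, of the aldo/keto reductase family, had Pol II at -1.87 and Upf1 at 0.43 and 0.35, and 40.1% of its 25-base words occur elsewhere in the genome. The small non-coding RNA SPNCRNA.455 had Pol II at -1.86 and Upf1 at -0.02 and -0.04. It is 92 bases long, and its RNA level, 87.8 FPKM, equals that of SPNCRNA.115, a member of the same length. SPAC144.01 had Pol II at -1.76 and Upf1 at -1.51 and -0.51. SPAC750.01 and SPAC144.01, with almost equally little Pol II, thus ranked 11th and 196th of the members in mean Upf1. Probes in the repeated words of SPAC750.01 cannot tell it from other sites, which limits both its Pol II and its Upf1 value.

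Between the cultures, 9 members (4.57%, background 3.78%) had Upf1 at least 1.5-fold higher in S phase and 10 (5.08%, background 4.03%) at least 1.5-fold lower, shares near the background. The cultures lay on different sides of the median gene, at least 1.5-fold apart, for 8 members (4.06%, background 3.62%). Differences are given as S phase minus asynchronous on the log2 scale, centred on all genes. The median difference over the members was -0.04. The highest were adg1 at 1.01, SPAC144.01 at 0.99, SPCC1840.07c, a phosphoprotein phosphatase, at 0.92 and cdc22 at 0.88. The others higher in S phase were mgr2, known in budding yeast as a subunit of the TIM23 translocase (0.77), gdh2, the NAD-dependent glutamate dehydrogenase (0.76), mpc1 (0.72), uds1 (0.69) and SPAC1002.07c, an N-acetyltransferase (0.67). At SPAC144.01 the S-phase value was still below the median gene. The genes lower in S phase were led by hsp9, a small stress-induced protein, at -1.20, SPAC16E8.18 at -1.14, rhb1 at -1.05 and ost2, a subunit of the oligosaccharyltransferase, at -1.03.

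The upstream DNA was searched on both strands over the 500 bases before the annotated start of each gene. The MCB is the binding site of MBF, the factor that drives genes of the G1-S transition, of which cdc22 is a classic target. It occurred upstream of 4.05% of 4844 genes and of 8 members (4.08%), and among the 9 members higher in S phase it was found at cdc22, 434, 62 and 52 bases before the start, the last pair being those printed above. The HomolD box CAGTCACA, typical of ribosomal protein promoters, was upstream of 84 of 133 cytosolic ribosomal protein genes (63.2%), of 3.16% of all genes and of 1 member, sib3 (0.51%). None of these 133 genes was a member, so the share over all genes holds a group that the members lack. A match is a description of the letters, and binding was not measured.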

How the data were processed

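The authors summarised the probes of each Affymetrix tiling array to a signal per gene, scaled and averaged 2 inputs and deposited the IP over input ratio of 1 IP array for each culture, the better of 2 per the methods. The deposited Pol II column is such a ratio, from arrays of an earlier study and the inputs belonging to them. The deposited RNA column is the natural log of FPKM + 1, averaged over 2 published libraries (base settled from the values, which gave a sum of FPKM times kb of 917640). The genome build of the gene signals is not given in the sources used here.

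Ratios were converted to log2 and centred on the median of 4888 genes with Python 3.11.15 and pandas 2.3.3. A value was called at 1.5-fold. No test was made. RefSeq (ASM294v3) named 4844 genes and gave lengths, GC content, introns and sequences. The members and the gene lists were chosen with earlier results of these data known, and the patterns for mitochondrial ribosomal proteins, tRNA ligases and splicing were fitted to RefSeq's wording. Named were the 10 members with most and with least Upf1, the 8 with most RNA, the 4 with least Pol II, the 4 changing most each way, the highest and lowest of each list of 5 or more, and those at the thresholds. A named gene and a sequence motif are not reported here. Other names were chosen after their values were seen. The calculations were tested on simulated data. The number of arrays limits the precision.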

Additional observations from a re-analysis of the deposited data

Results flagged for a closer look

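For 8 members Upf1 was above the median gene in 1 culture and below it in the other, with the cultures at least 1.5-fold apart (4.06%, background 3.62%). The difference was not tested, since each culture had 1 IP array, and the dates in the labels of these arrays also differ. Lower in S phase, with the difference as S phase minus asynchronous, were hsp9 (0.92 and -0.28, difference -1.20), rhb1 (0.95 and -0.10, difference -1.05), ost2 (0.39 and -0.62, difference -1.03) and SPBC8E4.04, an aldo/keto reductase (0.50 and -0.24, difference -0.75). Higher in S phase were SPCC1840.07c (-0.50 and 0.42, difference 0.92), mgr2 (-0.27 and 0.51, difference 0.77), gdh2 (-0.04 and 0.72, difference 0.76) and SPAC1002.07c (-0.12 and 0.56, difference 0.67).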

How the results depend on the processing

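Centred on the genes with the lowest Pol II, the members' medians turned to 0.12 in the asynchronous and 0.14 in the S-phase culture, and the counts at least 1.5-fold above became 9 and 24 and those below 2 and 6. Scaling the S-phase column to the asynchronous spread gave a distance to high-RNA genes with more Pol II of -0.36 in S phase and 6 members below. With the GC trend removed the members' medians were -0.0044 and -0.036, that distance was -0.11 and -0.24, and 1 member was below in the asynchronous culture. Within bins of RNA level it was -0.36 in S phase.

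An RNA threshold at the 90th percentile left 20 members, with medians of -0.0058 and -0.25, in S phase a distance to high-RNA genes of -0.89 and one to lower-RNA genes that turned to -0.063, and with 1 and 2 members above and 1 and 2 below. A Pol II threshold at the 25th percentile left 74 members, with 3 and 2 above and 4 and 10 below. Without overlapping genes 26 members stayed, with distances of -0.44 and -0.69 to high-RNA genes, one of -0.011 to lower-RNA genes in S phase, 0 and 0 above and 2 and 3 below. Fewer members lower these counts by construction. Without the shortest genes 3 were below in the asynchronous culture. At the lower of the other fold thresholds there were 13 and 24 above and 31 and 53 below, and at 2-fold 0 and 2 above and 1 and 3 below. The cause of the other changes was not tested. Of the comparisons under these settings, 104 kept their direction and moved by less than 0.1 log2 (counts, by no more than 1.5 times), among them the distance to lower-RNA genes within bins of gene length (0.08 and 0.09), a setting chosen after seeing the data. Of 368 values of single genes 90 moved by more than the spread between arrays, and no value at least 1.5-fold from the median gene changed sign. Smaller values did, such as SPBC1773.04 in S phase (0.39, and -0.09 with the GC trend removed) and cdc22 in the asynchronous culture (0.02 and -0.25).

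No paired analysis was possible because each culture had 1 IP array, and for the same reason no array was left out. Ratios over 1 pair of inputs, without an S-phase input, limit every value.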

Other observations

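The strand of the gene was not among the properties set out for the members, and its values were noticed in the ranks. All 10 members with least Upf1 lie on the reverse strand of the annotation, against 4 of the 10 with most. The 100 members on the reverse strand had Upf1 medians of -0.12 in the asynchronous and -0.20 in the S-phase culture, and the 96 on the forward strand -0.03 and -0.04. Over all annotated genes the medians were -0.00 and -0.02 on the reverse strand (2416 genes) and 0.00 and 0.02 on the forward strand (2428 genes). Among high-RNA genes with Pol II at or above the median the order was the other way, with 0.28 and 0.40 on the reverse and 0.22 and 0.37 on the forward strand. Lower-RNA genes with Pol II below the median had -0.14 and -0.21 on the reverse and -0.14 and -0.16 on the forward strand. The difference among the members was not tested.

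The members with an intron had Upf1 medians of -0.10 and -0.13 (139 genes), and those without had 0.00 and -0.07 (57 genes). Among lower-RNA genes with Pol II below the median the values were -0.19 and -0.22 with an intron and -0.08 and -0.14 without, so the order was the same there.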
